A study of Mus musculus with 9 samples.

Results

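The genes described here were 10 genes of the NRF2 pathway, which defends cells against oxidants and electrophiles, in the olfactory epithelium (OE) of mice exposed to heptanal, an aliphatic aldehyde. They were the sensor pair Nfe2l2 and Keap1 and the targets Hmox1, Nqo1, Gclc, Gclm, Srxn1, Txnrd1, Slc7a11 and Osgin1. They were chosen by symbol as known members of the pathway, to ask whether an aldehyde odorant evokes an irritant stress response, and all 10 were among the 23607 genes of the deposited tables. The data were RNAseq counts from pS6-IP, in which ribosomes that carry phosphorylated ribosomal protein S6, which active neurons accumulate, are captured by an antibody and the mRNAs bound to them are sequenced. All 9 animals were C57BL/6 mice, which inhaled vapour for 1 hr from filter paper holding distilled water (3 controls), 1% heptanal (3 mice) or 100% heptanal (3 mice). Each group had 1 mouse at postnatal day 22, 1 at day 21 and 1 at day 18, and the mice of a day were littermates of the same sex. Day, litter and sex therefore cannot be told apart, and the groups were compared within days.

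NRF2, encoded by Nfe2l2, is a transcription factor that KEAP1 holds in the cytoplasm and delivers for degradation. Electrophiles, reactive aldehydes among them, and oxidants modify cysteines of KEAP1, so that NRF2 accumulates, enters the nucleus, pairs with small MAF proteins and binds antioxidant response elements (AREs) near its targets. Much of this control acts on the NRF2 protein and not on Nfe2l2 mRNA. In the OE, odorants are also cleared by detoxifying enzymes of the sustentacular (supporting) cells, and NQO1 is known as a marker of olfactory sensory neurons (OSNs) of the dorsal zone.

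The promoters are shown for the targets whose levels the results turn on and for those with a motif match close to the start site. RefSeq promoters (GRCm38.p6, from 250 bases before to 50 bases after the start site) were given for 8 of the 10 genes, which had 10 promoters in all, and none was given for Hmox1 or Gclc. They were searched on both strands for the ARE core TGACNNNGC, which 12.4% of all 32851 promoters of this length held, and for the AP-1 motif TGANTCA, which 7.81% held. The motifs can overlap. The 5 windows below are the 150 bases before a start site, read 5′ to 3′ on the strand of the gene, with motif matches in capitals. They lie at chr8:107403206-107403355 on the minus strand for Nqo1, chr2:152105374-152105523 on the plus strand for Srxn1, chr8:119436997-119437146 on the plus strand for Osgin1, chr3:122245407-122245556 on the plus strand for Gclm and chr10:82859056-82859205 on the plus strand for the second of the 3 promoters of Txnrd1.
Nqo1: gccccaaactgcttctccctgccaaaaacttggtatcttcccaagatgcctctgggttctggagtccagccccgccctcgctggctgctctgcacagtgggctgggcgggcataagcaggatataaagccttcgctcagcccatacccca
Srxn1: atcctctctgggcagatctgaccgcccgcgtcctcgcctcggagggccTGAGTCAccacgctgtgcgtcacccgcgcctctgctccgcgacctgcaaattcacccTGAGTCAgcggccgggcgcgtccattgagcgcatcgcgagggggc
Osgin1: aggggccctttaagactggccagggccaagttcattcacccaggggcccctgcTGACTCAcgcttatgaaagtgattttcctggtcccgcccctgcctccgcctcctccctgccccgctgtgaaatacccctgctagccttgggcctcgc
Gclm: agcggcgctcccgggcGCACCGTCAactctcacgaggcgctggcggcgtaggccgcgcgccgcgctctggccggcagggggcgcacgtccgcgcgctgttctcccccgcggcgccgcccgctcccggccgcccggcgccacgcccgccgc
Txnrd1: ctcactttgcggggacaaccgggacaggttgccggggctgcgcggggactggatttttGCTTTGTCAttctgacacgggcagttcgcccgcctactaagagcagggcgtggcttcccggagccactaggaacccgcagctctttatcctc
The window of Nqo1 held neither motif. Srxn1 held AP-1 matches from -102 to -96 and from -45 to -39, counted from the start site, and the second one was followed by GC. With those bases it differs from the ARE core in 1 letter, a G for the C, so the search did not count it as an ARE core. Neither the ARE counts nor the shares of promoters include sites with that G. Whether this site acts as an ARE was not tested. At least 2 AP-1 matches occurred in 151 promoters, 0.460% of all. Srxn1 also held an ARE core on the opposite strand, from 29 to 37 bases after the start. Osgin1 held 1 AP-1 match from -97 to -91. The ARE core lay on the opposite strand in Gclm, from -134 to -126, and in Txnrd1, from -92 to -84. It also lay from -240 to -232 in Nfe2l2, outside the windows shown. In all, 4 of the 8 genes held an ARE core and 2 held an AP-1 match. These are counts of genes, and Txnrd1 has 3 promoters, whereas the shares above are of promoters. Among 13987 promoters of genes tested, 14.2% held an ARE core and 5.63% an AP-1 match. No match was found in the promoters of Slc7a11 and Keap1 or in the other promoters of Txnrd1. A match describes the letters only, and many known AREs lie outside these windows.

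Each mouse had between 5438494 and 9707592 estimated counts (median 7305895), on which levels are given as CPM, a gene's count scaled to the size of its library, with TMM factors. No library was a near copy of another. All 10 genes passed the filter on low counts, as did 14930 genes in total. Between genes, levels were compared as CPM per kb of merged exons (GENCODE vM21). The cDNA was primed at the poly(A) tail and amplified, so this scale also depends on how far reads reach from the 3′ end. On that scale the controls had 65.0 ± 10.1 for Nqo1 (SD, n = 3), 58.9 ± 12.0 for Gclc, 57.7 ± 8.55 for Txnrd1 and 52.4 ± 10.5 for Nfe2l2, and each of these 4 was within 1 SD of the next. At 1% heptanal the order was Txnrd1 (61.7 ± 11.2), Gclc (54.0 ± 16.97), Nqo1 (51.9 ± 20.04) and Nfe2l2 (48.0 ± 0.639), again with differences within the spread, and at 100% Nqo1 stood first at 141 ± 20.5 above Txnrd1 at 73.0 ± 6.30. Keap1 (22.7 ± 2.95), Osgin1 (19.1 ± 1.22), Gclm (15.2 ± 4.01) and Srxn1 (15.2 ± 4.84) were lower in controls, and over the 9 mice their ranges overlapped one another. Hmox1 lay below them without overlap, at 2.15 ± 0.538 CPM per kb in controls, and Slc7a11 was lowest, again without overlap, at 0.303 ± 0.274. Every value comes from a whole-tissue pull-down without the input RNA, so fewer cells of a type, less RNA per cell and less phosphorylated S6 cannot be told apart.

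At 100% heptanal, the fitted levels of Nqo1 and Srxn1 were 2.19 and 2.28 times those of controls, with a ratio above 1 in all 3 litters. Osgin1 (1.68-fold) and Txnrd1 (1.28-fold) had smaller and less even differences, and the other 6 genes lay between 0.699 and 1.16 times control. None of the 10 passed an adjusted p of 0.05 against control in edgeR's quasi-likelihood test, beside 0.322% of all genes tested that were called higher (48 genes) and 0% called lower. At an unadjusted p under 0.05, Nqo1 and Srxn1 were higher and none was lower, beside 6.63% and 3.79% of all genes. DESeq2 and edgeR's likelihood ratio test, run with the same block, each called Nqo1 and Srxn1 higher, but they also called more genes in all, 1.64% and 1.67% of those with an adjusted p. The median log2 fold change of the 10 genes was 0.14, beside -0.0022 over all genes tested. The summed level of the 10 genes was 1081 to 1334 CPM in controls, 1114 to 1395 CPM at 1% and 1510 to 1554 CPM at 100% heptanal, so that the 3 mice at 100% lay above the other 6. The sum weighs genes by level and does not describe each member. Mean CPM was 101 in controls and 219 at 100% for Nqo1, and 409 and 518 for Txnrd1. Hmox1, Slc7a11, Nfe2l2 and Keap1 had lower means at 100% than in controls. No share over all genes stands beside this sum, and the genes were chosen with earlier results known. At 100% heptanal 4 genes (Nqo1, Gclm, Srxn1 and Txnrd1) were higher than control on all 3 days, which 18.4% of all genes were, and 3 (Hmox1, Nfe2l2 and Keap1) were lower on all 3 days, which 18.1% were. The groups did not overlap, with 100% heptanal higher, for Nqo1, Srxn1 and Txnrd1, beside 5.96% of all genes.

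**Figure D1:**
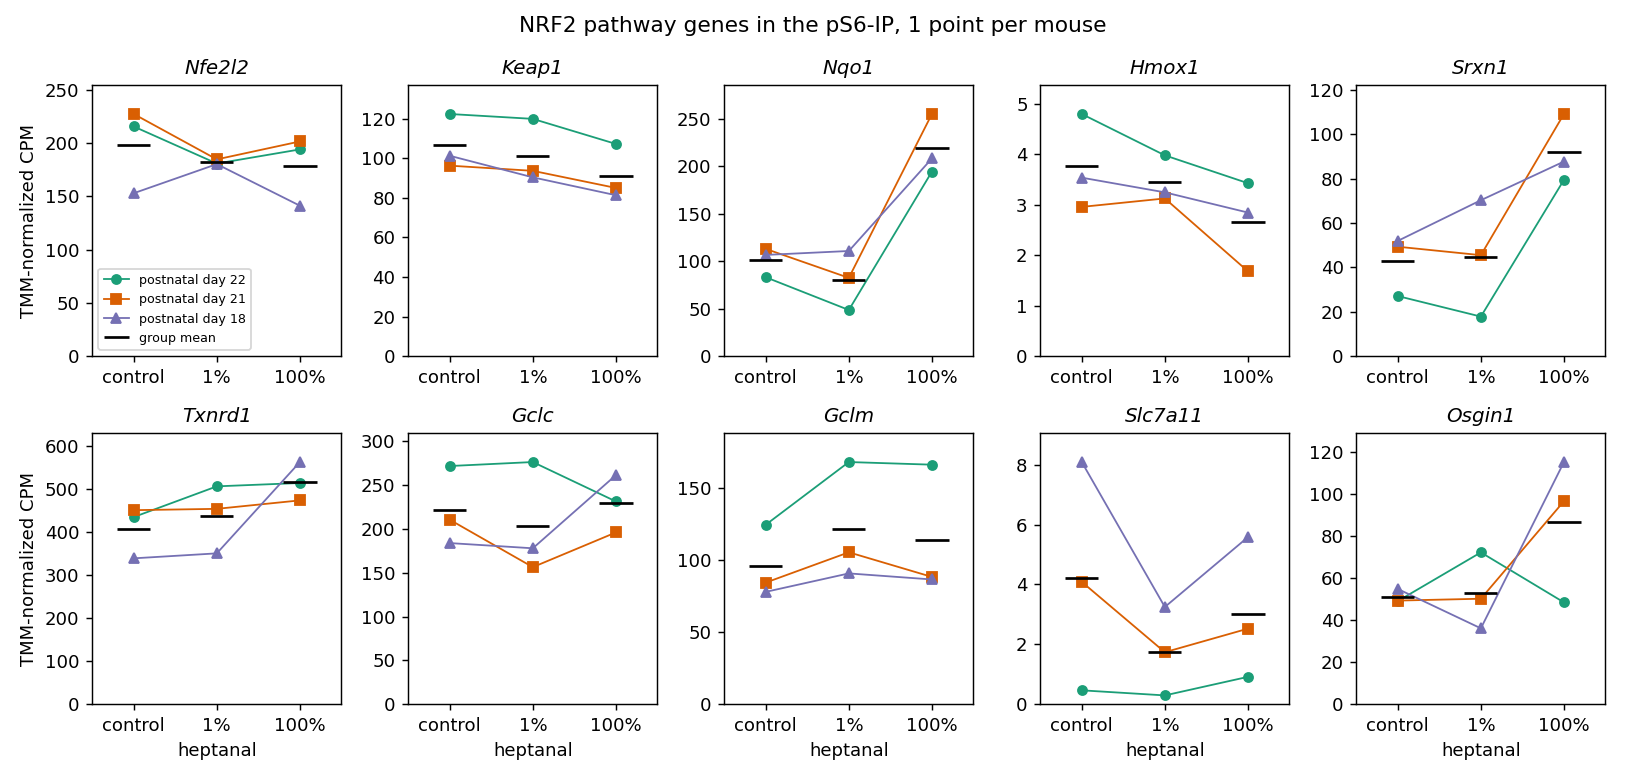
TMM-normalized CPM (linear axes from 0, one scale per gene) of the 10 NRF2 pathway genes in each of 9 mice, by heptanal group. Points joined by a line are littermates of 1 postnatal day and black bars are group means. The 3 mice at 100% heptanal lie above all others for Nqo1 (194 to 255 CPM) and Srxn1 (79.4 to 109 CPM), while Gclm and Slc7a11 separate mainly by day.

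Nfe2l2 and Keap1, the factor and its inhibitor, had mean mRNA levels slightly below control at both concentrations. For Nfe2l2, days 22, 21 and 18 had 216, 227 and 153 CPM in controls, 181, 185 and 180 CPM at 1% and 194, 202 and 141 CPM at 100% heptanal. The ranges of the 3 groups overlapped, and at 100% the log2 fold change was -0.15 ± 0.15 (SE; adjusted p = 0.783, edgeR), with a 95% interval from -0.48 to 0.18. Keap1 had 122, 96.2 and 101 CPM in controls, 120, 93.6 and 90.3 CPM at 1% and 107, 85.0 and 81.3 CPM at 100% heptanal. On each day Keap1 was lowest at 100%, by -0.23 ± 0.12 on the log2 scale (adjusted p = 0.562), yet the ranges overlapped. Of the reads of Keap1, 5.60% mapped to several places and had been assigned by the rescue scheme of the authors, and an antisense gene overlaps it, which the unstranded libraries cannot separate. Nfe2l2 lies at chr2:75675513-75704641 (minus strand) and Keap1 at chr9:21229730-21239361 (minus strand) in GRCm38.

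Nqo1 (chr8:107388225-107403206, minus strand) encodes a quinone reductase and is one of the classical NRF2 targets. Its controls had 83.2, 113 and 107 CPM on days 22, 21 and 18, the mice at 1% had 48.7, 82.5 and 111 CPM, and those at 100% had 194, 255 and 208 CPM. The 3 mice at 100% thus lay far above the other 6, which overlapped. Against its own control, Nqo1 was 2.34, 2.26 and 1.95 times higher at 100% on the 3 days. The fitted change was 2.19-fold (95% interval 1.61 to 2.98; log2 1.13 ± 0.20 SE), with an adjusted p = 0.0697 by edgeR's quasi-likelihood test, which ranked it 68th of all genes. It was the only one of the 10 genes to pass the test of any difference among the 3 groups (adjusted p = 0.0425), which 0.228% of all genes passed. At an unadjusted p under 0.05 Nqo1 and Srxn1 passed that test, beside 8.55% of all genes. With fewer mice that adjusted call was lost when any 1 of 8 of the 9 mice was left out, and it was kept without the day 18 mouse at 1%. The size of the difference moved little, with a log2 fold change of 0.98 to 1.31 against control when 1 mouse at a time was left out. The call against control depended on the test as well. The adjusted p was 0.000141 with DESeq2, 0.000189 with the likelihood ratio test, 0.0311 without the filter on low counts and 0.0409 and 0.0227 without the day 22 or the day 18 mouse at 1%, but 0.733 when the postnatal day was left out of the model.

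Hmox1 (chr8:75093621-75100589, plus strand), which encodes heme oxygenase and is among the most inducible targets of the pathway, did not follow Nqo1. It had 31, 21 and 28 estimated counts in controls on days 22, 21 and 18, 27, 18 and 33 at 1%, and 30, 12 and 25 at 100% heptanal. On the CPM scale the controls had 4.80, 2.96 and 3.54, and the mice at 100% had 3.43, 1.68 and 2.85, lower than their control on each day. The log2 fold change was -0.52 ± 0.46 (SE; adjusted p = 0.754), with a 95% interval from -1.57 to 0.54. At these counts a rise of up to 1.45-fold lay within the interval, and a rise of 2-fold did not.

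The 2 genes of thiol repair were both above control in each litter at 100% heptanal. Srxn1 (chr2:152105516-152111376, plus strand) encodes sulfiredoxin, which restores over-oxidized peroxiredoxins. Its controls had 27.1, 49.3 and 51.9 CPM on days 22, 21 and 18, the mice at 1% had 17.8, 45.5 and 70.3 CPM, and those at 100% had 79.4, 109 and 87.7 CPM. All 3 mice at 100% were above the other 6, and the ratios to control were 2.93, 2.21 and 1.69. The fitted change of Srxn1 was 2.28-fold (95% interval 1.46 to 3.57; log2 1.19 ± 0.29 SE; adjusted p = 0.175, edgeR). DESeq2 gave an adjusted p = 0.00882 and the likelihood ratio test 0.0143, and leaving out 1 mouse at a time gave 0.0817 to 0.607. Txnrd1 (chr10:82833951-82897712, plus strand) encodes the cytosolic thioredoxin reductase. It had 435, 452 and 339 CPM in controls, 507, 455 and 351 CPM at 1% and 515, 474 and 564 CPM at 100% heptanal. The mice at 100% did not overlap the controls, but the ratio was 1.66 on day 18 and only 1.18 and 1.05 on days 22 and 21. The log2 fold change of Txnrd1 was 0.36 ± 0.16 (SE; adjusted p = 0.498). Eid3 overlaps Txnrd1 on the same strand, and reads from both genes cannot be fully told apart.

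No gene of the glutathione branch passed the test. Gclc (chr9:77754535-77794485, plus strand) and Gclm (chr3:122245557-122270732, plus strand) encode the catalytic and the modifier subunit of glutamate-cysteine ligase, the enzyme of the limiting step in glutathione synthesis. Gclc had 272, 210.4 and 184 CPM in controls, 276, 156 and 178 CPM at 1% and 231, 196 and 261 CPM at 100% heptanal, and the 3 groups overlapped. Its log2 fold change at 100% was 0.07 ± 0.18 (SE; adjusted p = 0.944), with a 95% interval from -0.34 to 0.48, or up to 1.39-fold. Gclm had 124, 84.3 and 77.9 CPM in controls, 168, 105 and 90.6 CPM at 1% and 166, 88.2 and 86.4 CPM at 100% heptanal. Gclm was a little above its littermate control in each exposed mouse, by 0.21 ± 0.13 on the log2 scale at 100% (adjusted p = 0.628), although the groups overlapped. Slc7a11 (chr3:49892526-50443614, minus strand), which encodes the cystine importer that feeds the same synthesis, was scarcely measured. It had 3, 29 and 64 estimated counts in controls on days 22, 21 and 18, 2, 10 and 33 at 1% and 8, 18 and 49 at 100% heptanal, and 59.3% of its reads had been assigned by the rescue scheme. No direction can be read from its log2 fold change at 100%, -0.23 ± 0.54 (SE; adjusted p = 0.930), with a 95% interval from -1.45 to 0.99.

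Osgin1 (chr8:119434124-119446256, plus strand), an oxidative stress-induced growth inhibitor, differed between the litters. It had 49.1, 49.3 and 54.9 CPM in controls on days 22, 21 and 18, 72.3, 50.2 and 36.1 CPM at 1% and 48.5, 96.6 and 115 CPM at 100% heptanal. The mice at 100% on days 21 and 18 were 1.96 and 2.10 times their control and lay above all other mice, whereas the mouse on day 22 was at 0.987 of its control. The fitted log2 fold change was 0.75 ± 0.34 (SE; adjusted p = 0.498), and it ranged from 0.38 to 1.16 when 1 mouse at a time was left out, highest without the day 22 mouse at 100%.

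**Figure D2:**
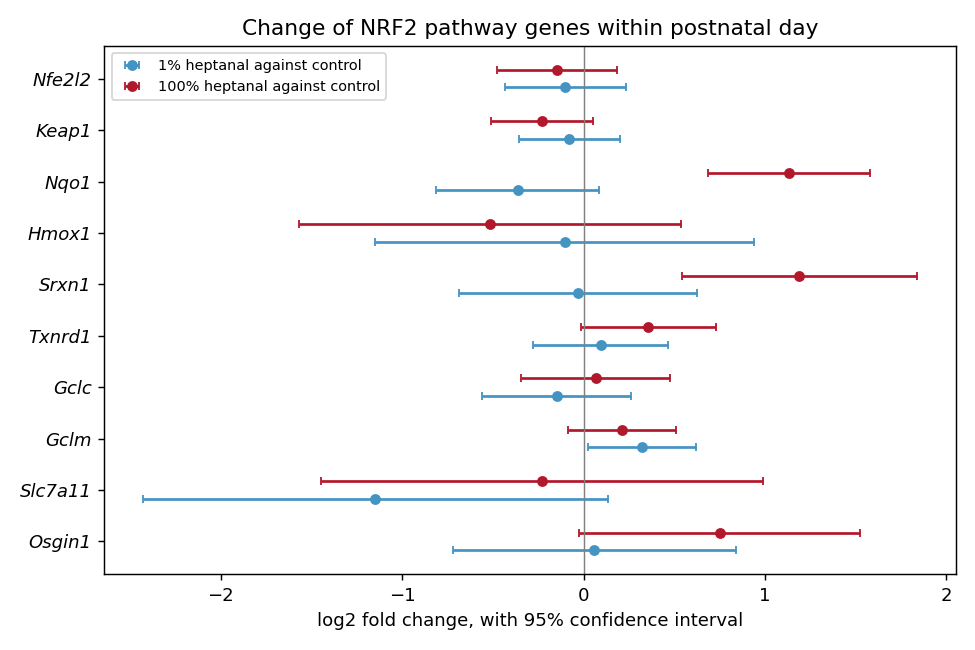
Log2 fold changes against control (x axis) of the 10 genes from the fit within postnatal day, at 1% (blue) and 100% heptanal (red), with 95% confidence intervals. At 100% the intervals of Nqo1 (0.69 to 1.58) and Srxn1 (0.54 to 1.84) lie above 0 before adjustment for the genes tested, and at 1% only that of Gclm does (0.02 to 0.62).

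At 1% heptanal, the dilute stimulus, the fitted levels of the 10 genes lay between 0.451 times control (Slc7a11) and 1.25 times control (Gclm). Both concentrations were compared with the same 3 control mice. None of the 10 genes passed the adjusted test, nor did any of the genes tested (0% in each direction), and all 10 had an adjusted p = 0.9997. DESeq2 and the likelihood ratio test called none of the 10 either, beside 0.0134% and 0.0201% of all genes that they called higher and 0.0067% and 0.0737% that they called lower. At an unadjusted p under 0.05 only Gclm was higher, by 0.32 ± 0.13 on the log2 scale (SE), beside 1.32% of all genes that were higher and 1.94% that were lower. Nqo1 was at 0.585, 0.730 and 1.04 of its control on days 22, 21 and 18, a log2 fold change of -0.36 ± 0.20 (SE). Its 95% interval, from -0.81 to 0.09, held no rise above 1.06-fold. Srxn1 was at 0.658, 0.923 and 1.35 of its control, with a log2 fold change of -0.03 ± 0.29 (SE). Gclm and Txnrd1 were higher than control on all 3 days, which 11.5% of all genes were, and Slc7a11 and Keap1 were lower on all 3, which 11.7% were. For none of the 10 were the groups apart, beside 2.28% of all genes with 1% heptanal higher and 1.64% with it lower. The median log2 fold change of the 10 was -0.09, beside -0.014 over all genes.

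The difference between the concentrations was tested directly, with the same mice at 100% as in the comparison with control. Nqo1 was 2.82-fold higher at 100% than at 1% heptanal (95% interval 2.07 to 3.84; adjusted p = 0.0516, edgeR) and was higher on all 3 days, by 3.996, 3.09 and 1.88 times. Srxn1 was 2.33-fold higher (95% interval 1.48 to 3.64; adjusted p = 0.257), by 4.45, 2.40 and 1.25 times. For both genes the ratio was largest on day 22. Some unrelated genes also had very low levels at 1% on that day. Cnga2 had 121, 20.6 and 410 CPM on day 22 in control, 1% and 100% heptanal, and Dcn had 15.5, 1.77 and 99.8 CPM. Other genes did not, such as Omp with 4460, 5723 and 9234 CPM. Whether the quality of the day 22 libraries bears on these ratios was not tested. None of the 10 passed, beside 0.0804% of all genes (12) that were called higher and 0% called lower. DESeq2 and the likelihood ratio test again called both genes, beside 1.23% and 1.27% of all genes. The adjusted p of Nqo1 fell to 0.0105 without the day 18 mouse at 1% and to 0.0460 without day 18. Nqo1, Srxn1, Txnrd1 and Slc7a11 were higher at 100% than at 1% on all 3 days, beside 16.9% of all genes, and Hmox1, Gclm and Keap1 were lower on all 3, beside 15.5%. At an unadjusted p under 0.05 Nqo1 and Srxn1 were higher, beside 6.74% of all genes, and none was lower, beside 3.68%. Nqo1 and Srxn1 were also the genes whose groups did not overlap with 100% higher, beside 4.74% of all genes, and none did so with 100% lower, beside 4.15%. Slc7a11, at 10 counts or fewer in 2 of the 3 mice at 1%, was 1.89-fold higher with a 95% interval from 0.78 to 4.60.

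Days took a larger share of the variance than groups for 6 of the 10 genes, namely Gclm, Slc7a11, Keap1, Nfe2l2, Hmox1 and Gclc. Gclm averaged 153 CPM on day 22 but 92.6 and 85.0 CPM on days 21 and 18, and the days differed (adjusted p = 0.00453, edgeR). Slc7a11 averaged 0.558, 2.78 and 5.64 CPM on the same days (adjusted p = 0.0123). These 2 of the 10 genes passed the test, while 27% of all genes did. Days took 85.8% of the variance of log2 levels for Gclm and 85.6% for Slc7a11, but 12.6% for Nqo1 and 1.94% for Osgin1, with a median of 52.8% over the 10 genes and 52.0% over all genes. Groups took 80.2% for Nqo1 and 51.9% for Srxn1, with a median of 29.7% over the 10 genes and 14.0% over all genes.

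None of the other genes listed for the pathway passed the test at 100% heptanal. Of 13 regulators, which include the degradation machinery and partners of NRF2, 0 passed at 100% heptanal in either direction, with a median log2 fold change of -0.01. The lowest p in this list were those of Rbx1, a subunit of the ligase that KEAP1 serves (0.45 ± 0.15 SE, adjusted p = 0.353), and Maff, a small MAF partner of NRF2 (0.73 ± 0.27 SE, adjusted p = 0.394). Maff rested on 9.10 ± 0.309 CPM in controls and 15.5 ± 4.27 CPM at 100% (SD, n = 3). Of 20 other glutathione and thioredoxin genes 0 passed, with a median of 0.06. In this list the peroxiredoxin gene Prdx6 had 0.49 ± 0.17 (SE, adjusted p = 0.364) and the glutathione peroxidase gene Gpx4 had 0.41 ± 0.17 (SE, adjusted p = 0.441). Of 19 further detoxification genes tested 0 passed, with a median of 0.23. There, Gstm4, a glutathione transferase gene, had 24.9 ± 5.65 CPM in controls and 44.2 ± 5.50 CPM at 100% (SD, n = 3), a log2 fold change of 0.85 ± 0.20 (SE, adjusted p = 0.163). Aldh3a1, which encodes an aldehyde dehydrogenase, had 0.62 ± 0.19 (SE, adjusted p = 0.313).

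Neighbouring stress programmes were read the same way. Of 8 heme and iron genes 0 passed at 100%, with a median of 0.15, and Hmox2, the constitutive heme oxygenase gene, had 0.46 ± 0.19 (SE, adjusted p = 0.438). Of 10 genes of the ATF4 arm, which answers amino acid and protein folding stress and also drives Slc7a11, 0 passed, with a median of -0.07. Atf3 had the lowest p of that list at 0.98 ± 0.41 (SE, adjusted p = 0.467). Of 7 heat shock genes 0 passed, with a median of 0.55. Hspa1a, the inducible HSP70 gene, had 15.6 ± 4.96 CPM in controls and 108 ± 80.1 CPM at 100% (SD, n = 3; adjusted p = 0.248), and was above control on 2 of 3 days. Dnajb1, its cochaperone gene, had 0.86 ± 0.24 (SE, adjusted p = 0.241). Of 8 activity genes, which neurons induce when they fire, 4 rose and 0 fell. They were Fosb (log2 4.98, adjusted p = 0.00136), Egr1 (2.98, 0.00136), Fos (2.72, 0.0068) and Nr4a1 (2.18, 0.00695). Fosb had 2.68 ± 1.08 CPM in controls and 83.9 ± 14.9 CPM at 100% (SD, n = 3). At 1% heptanal 0 genes of any of these lists passed. The lists were compared by their counts and medians only.

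**Figure D3:**
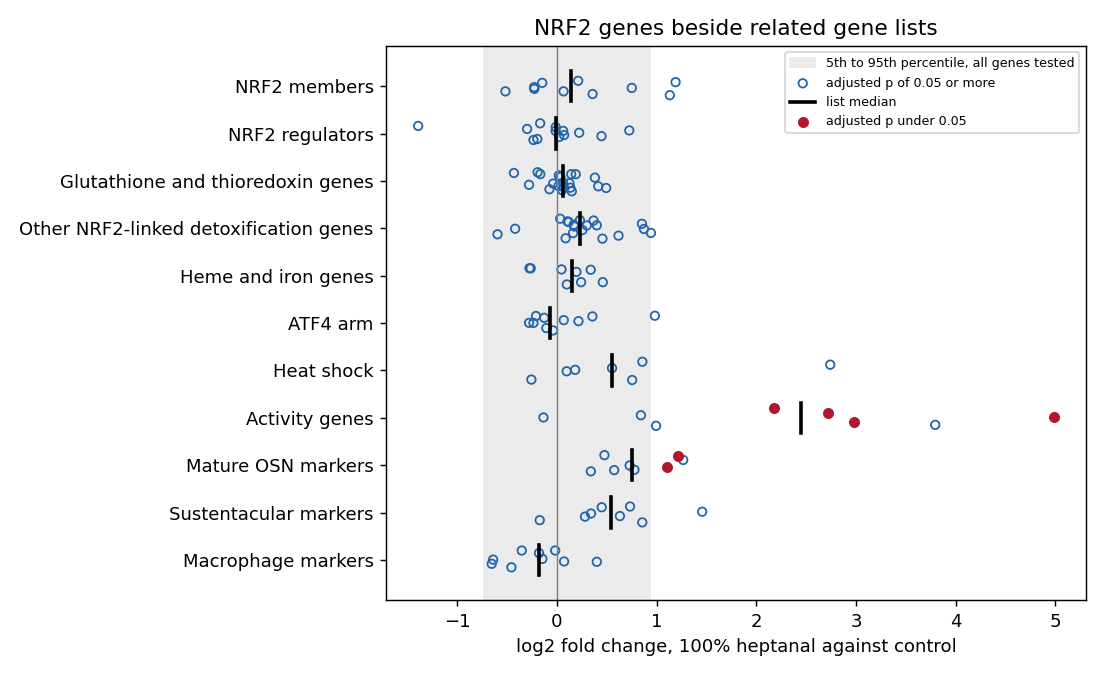
Log2 fold change at 100% heptanal against control (x axis) for each tested gene of 11 lists, 1 point per gene, with list medians (black bars) and the 5th to 95th percentile of all genes tested in grey. Filled red points passed an adjusted p of 0.05, namely 4 activity genes and 2 markers of mature OSNs, and no gene of the NRF2 lists did.

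At 100% heptanal, markers of mature OSNs were also above control, to unequal degrees. The summed level of 8 such markers was 4883 to 10054 CPM in controls, 7182 to 9679 CPM at 1% and 12043 to 17123 CPM at 100% heptanal, and was 2.03, 1.70 and 2.47 times control at 100% on days 22, 21 and 18. At 1% this sum was 1.18, 0.963 and 1.47 times control on those days, while Nqo1 was at 0.585, 0.730 and 1.04. All 8 markers were above control in the fit at 100%, with log2 fold changes from 0.34 to 1.27 (median 0.75). Of all 14930 genes tested, 7431 were above control. Stoml3 (1.22, adjusted p = 0.0231) and Omp (1.11, adjusted p = 0.0311) passed edgeR's test. None of the 8 was at 0 in any mouse. Per 1000 counts of these markers, Nqo1 had 12.9, 11.2 and 21.8 in controls, 6.39, 8.53 and 15.4 at 1% and 14.8, 14.9 and 17.3 at 100% heptanal. Omp made up most of the marker sum, with 4460 of 6464 CPM in the day 22 control. At 100% on that day it had 9234 of 13132 CPM. The scale thus mostly follows Omp, and other weightings of the markers were not tested. On that scale the mice at 100% overlapped the controls, and Nqo1 was below its control on day 18. Srxn1 per 1000 marker counts was 4.19, 4.91 and 10.6 in controls and 6.05, 6.37 and 7.28 at 100%, with the same overlap. Scaled by these markers in the fit, a setting chosen after the values were seen, the log2 fold change was 0.10 for Nqo1 (adjusted p = 0.701) and 0.16 for Srxn1 (adjusted p = 0.631). This scaling moved the median of all genes to -1.04, so both still lay above that median. It called 64.9% of all genes lower, and 6 of the 10 genes among them, which says nothing about these genes in particular. At 1% heptanal it left Nqo1 uncalled too, and against 1% heptanal Nqo1 at 100% was then called, with 0.73 on the log2 scale (adjusted p = 0.0296), beside 0.529% of all genes. The part of OSN markers in the result was not tested further.

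**Figure D4:**
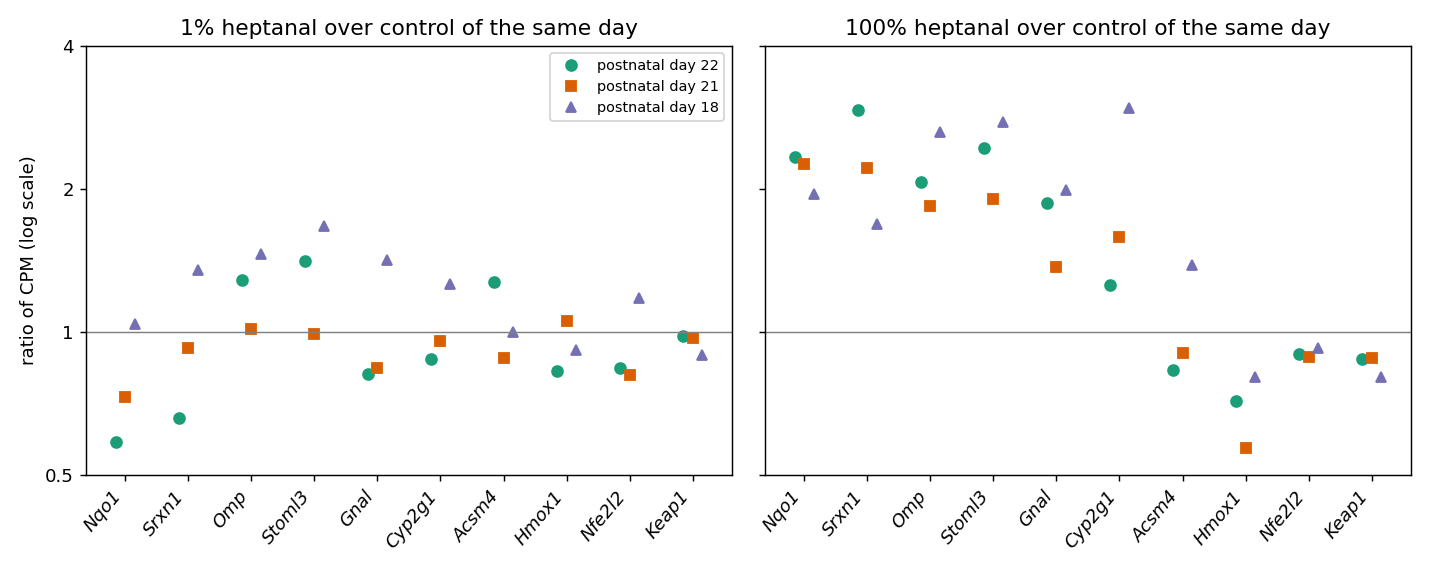
Ratio of CPM to the control of the same postnatal day (log axis) at 1% (left) and 100% heptanal (right), 1 point per mouse, for 5 genes of the pathway, the mature OSN markers Omp, Stoml3 and Gnal, the sustentacular marker Cyp2g1 and the dorsal zone marker Acsm4. At 100%, Nqo1 (1.95 to 2.34) and Srxn1 (1.69 to 2.93) overlap the ranges of Omp and Stoml3, and Hmox1, Nfe2l2 and Keap1 lie below 1. Not all of the 8 mature OSN markers are drawn, and their fitted log2 fold changes at 100% ranged from 0.34 to 1.27.

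Other cell types were read from their markers at 100% heptanal. Of 8 sustentacular markers 0 passed, with a median of 0.54, and their summed level was 6814 to 9341 CPM in controls and 10760 to 11430 CPM at 100%. Cyp2g1, a cytochrome P450 gene of these cells, had 0.86 ± 0.21 (SE, adjusted p = 0.185). Of 5 immature OSN markers 0 passed (median 0.28), as of 6 basal cell markers (-0.40), 6 Bowman gland markers (-0.33), 5 respiratory markers (0.23) and 8 ensheathing and stromal markers (-0.20). Of 9 macrophage markers 0 passed (-0.18), and their summed level was 199 to 334 CPM in controls and 129 to 291 CPM at 100%. All 6 erythroid markers (median -0.79) and all 4 neutrophil markers tested (-0.78) were below control, and 0 passed. Of all 14930 genes tested, 7431 were above control. The erythroid markers Hba-a1 and Hba-a2 had identical counts in every mouse, so they are 1 reading and not 2. Among the neutrophil markers only Ltf was abundant, with 2049 CPM in the day 22 control, where Mpo had 1.70 CPM. Hmox1, which macrophages that clear red cells express, was below its control on each day. Acsm4, a marker of the dorsal zone picked after its values were seen, had 357 ± 97.3 CPM in controls and 354 ± 41.5 CPM at 100% (SD, n = 3), a log2 fold change of 0.03 (adjusted p = 0.980). Its days were uneven, with 462, 340 and 269 CPM in controls on days 22, 21 and 18 and 383, 306 and 372 CPM at 100%. Of the 3 zone markers listed 0 passed, with a median of 0.03. The part of any of these cell types in the results was not tested.

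Likeness of pattern was described over the 9 mice after each day's mean was removed, on log2(CPM + 1), with no test, since the mice share days and depth. Nqo1 was the reference because it had the lowest p of the 10 genes at 100% heptanal. Differences between groups were kept, so genes that were also higher at 100% rank high largely by construction. Of all 14929 other genes tested, those most like Nqo1 were Lrp11 (Pearson r = 0.986), Arsg (0.985), the odorant receptor genes Olfr212 (0.982) and Olfr167 (0.982) and Fam149a (0.981). Srxn1 ranked 13th with r = 0.960. The remaining members did not share this pattern, with r = 0.458 for Txnrd1, 0.398 for Osgin1, 0.333 for Slc7a11, 0.227 for Gclc, -0.03 for Nfe2l2 and -0.09 for Gclm. Hmox1 (-0.773) and Keap1 (-0.784) ran opposite to it, at ranks 14193 and 14254 of the 14929 genes. Apart from Nqo1 with Srxn1, the most alike pairs among the 10 genes were Hmox1 with Keap1 (0.779) and Txnrd1 with Osgin1 (0.773). Olfr212 had 25.5 ± 15.9 CPM in controls and 84.5 ± 38.2 CPM at 100% heptanal (SD, n = 3; adjusted p = 0.118).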

How the data were processed

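The pS6-IP libraries of 9 mice were used, 3 per group. According to the methods, the authors used Bowtie for alignment to mm10 and BEDTools for counting on genes (versions not given in the sources used here), with their own models for odorant receptor genes, and deposited 1 table per mouse without a header. Column 2 of the deposited tables was read as counts of uniquely mapped reads, and column 21 as estimated counts, in which the authors also assigned reads that map to several genes by a rescue scheme. Neither is normalized. The other columns were not used. The rescued share was 23.9% to 30.5% of a mouse's total.

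Rounded estimated counts entered edgeR 4.0.16 under R 4.3.3 (filterByExpr by group with a minimum count of 10, TMM, glmQLFit, glmQLFTest), in 1 fit over all 9 mice with postnatal day as a block. The Benjamini-Hochberg adjustment ran over all 14930 genes tested (threshold 0.05). The standard errors and 95% intervals of log2 fold changes came from the same fit. The test was also run on simulated data, with 2-fold and 4-fold changes put on genes drawn at random. It found 9.67% of the 2-fold and 66.7% of the 4-fold changes. Of its calls 15.2% were false, more than its threshold allows. Each run changed 200 genes up or down with the spread taken from the fit itself, whereas the genes called here against control were all higher. The share of false calls among the genes called here is therefore not known, and may also exceed the threshold. These rates are averages over the drawn genes, not those for genes with the level and spread of Nqo1 or Srxn1. A gene that did not pass is therefore not shown to be unchanged. Levels are TMM-normalized CPM, and ratios within a day are ratios of CPM. Intervals and depth cover counting and mouse-to-mouse error of amplified cDNA without molecular identifiers. The labels give each day 1 mouse of each group, and the methods state littermates, so the replicate numbers pair the mice. The deviations from group means of same-day mice correlated in all 9 pairs (r = 0.179 to 0.761, mean 0.573). The methods put the mice at 3 to 4 weeks of age, which the labels' days 22, 21 and 18 only partly match.

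The 10 genes and the lists of other genes were chosen with earlier results of these data known. Named are the 10 genes, list genes past the threshold or else up to 2 per list with the lowest p at 100% heptanal, the 5 genes most like Nqo1, and markers. The dorsal zone marker was picked after its values were seen. Alternatives covered the block, scaling, the filter, the reads counted, DESeq2 1.42.0, the likelihood ratio test, and leaving out mice or days. Coordinates came from GENCODE vM21 and promoters from RefSeq (GRCm38.p6). Other software was Python 3.11.15, numpy 2.4.6, pandas 2.3.3, scipy 1.17.1 and matplotlib 3.10.9.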

Additional observations from a re-analysis of the deposited data

How the results depend on the processing

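In all, 21 alternatives were fitted, 20 planned and 1 added after the values were seen. Of 630 values of single genes under them, 579 kept their direction and side of the threshold, 0 lost a call and 30 changed sign. The threshold was passed by 24 values, 3 of them among the sign changes. Of 165 counts, 132 were within 1.5 times the reported count. The reported counts were 0 of 10 genes for each pairwise comparison, 1 for either concentration (Nqo1) and 2 for postnatal day. Against control at 100% heptanal, DESeq2 and the likelihood ratio test called 2 higher, no filter called 1, and leaving out 1 mouse gave 0 to 1. Against 1% heptanal, DESeq2 and the likelihood ratio test called 2 higher, and no filter, the fit without day 18 and scaling by mature OSN markers called 1 each, while leaving out 1 mouse gave 0 to 1. For either concentration, the fit with no replicate block, scaling by library size, RLE size factors and the fits without day 22, 21 or 18 called 0, the likelihood ratio test called 2, and leaving out 1 mouse gave 0 to 1. For postnatal day, leaving out 1 mouse gave 1 to 2 and the fit without day 22 gave 0. Without the replicate block, Nqo1 at 100% against control had an adjusted p of 0.733, and the common dispersion was 0.253 in place of 0.081. With scaling by mature OSN markers, 6 genes were called lower at 100% against control (64.9% of all genes), 3 lower against 1% (43.5%), 6 for either concentration (56.1%) and 6 for postnatal day (48.9%), so these counts follow a shift of most genes.

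Over all genes, the number called higher at 100% against control was 48 with the reported test, 230 with DESeq2, 249 with the likelihood ratio test and 74 with no filter. Against 1% heptanal it was 12, 184, 190 and 25 in the same order. For either concentration it was 34, but 2 without the replicate block, 14 with library size alone and 342 with the likelihood ratio test. The cause of these differences was not tested.

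The sign changes were as follows, none with a call in the reported pairwise tests. At 100% against control, the log2 fold change of Gclc was -0.16 without day 18 and -0.14 to 0.25 when 1 mouse was left out, and that of Slc7a11 was 0.031 without day 21, 0.021 without day 18 and -0.55 to 0.017 when 1 mouse was left out. At 1%, Srxn1 had 0.059 with no replicate block, 0.027 with library size alone, 0.18 without day 22, 0.032 without day 21 and -0.44 to 0.28 when 1 mouse was left out. Osgin1 had -0.29 without day 22 and -0.46 to 0.42 when 1 mouse was left out, Txnrd1 had -0.0038 to 0.21 when 1 mouse was left out, and without day 21 Gclc had 0.0044 and Nfe2l2 had 0.013. Between the concentrations, Nfe2l2 had 0.12 without day 18 and -0.14 to 0.13 when 1 mouse was left out. Scaling by OSN markers gave -0.96 for Gclc, -0.83 for Gclm, -0.68 for Txnrd1 and -0.30 for Osgin1 at 100% against control. It gave -0.14 for Txnrd1 and -0.18 for Osgin1 at 1%, and -0.57 for Gclc, -0.54 for Txnrd1 and -0.11 for Osgin1 between the concentrations. That scaling moved the median of all genes by construction, to -1.04 at 100%, -0.27 at 1% and -0.76 between the concentrations. Depth limits Hmox1 and Slc7a11, whose counts did not exceed 33 and 64 in any mouse.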
